A study of Mus musculus with 6 samples.

Results

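The 8 genes described here are Vpreb1, Igll1, Vpreb3, Cd79a, Cd79b, Ebf1, Spib and Fcrla, parts of the pre-B cell receptor and other genes of the B lymphocyte lineage. They were chosen by symbol, with earlier results of these data known, and are 8 of the 23538 genes in the tables. They are followed across 6 sorted populations of mouse bone marrow and 2 genotypes. The Mof het group is labelled Mof -/+ and has lost 1 copy of Mof (gene symbol Kat8), a lysine acetyltransferase of histone H4, and the other group is labelled wild type. Neither the reach of the deletion across tissues nor the age of the mice is given, and whether the libraries of a group come from separate mice is not stated, so p-values measure the spread between libraries, which may be technical. Each library holds the RNA of 15 sorted cells and was made by CEL-Seq2, a protocol that captures transcripts at their 3′ ends. Each population and genotype has 3 libraries, 36 in all. The gates were LSK (lineage-negative, Sca-1-positive, cKit-positive) without CD34, Flt3 and CD48 but with CD150 for haematopoietic stem cells (HSC). Multipotent progenitors were LSK cells with CD34 and CD48, with CD150 but not Flt3 in MPP2, neither CD150 nor Flt3 in MPP3, and Flt3 but not CD150 in MPP4. The CMP (common myeloid) and MEP (megakaryocyte and erythroid) progenitors lacked lineage markers, Sca-1 and IL7r but had cKit. CMP carried CD34 and little CD16/32, and MEP carried none of either.

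A developing B cell first joins its antibody heavy chain gene. The heavy chain then reaches the surface together with the surrogate light chain, which is made of the proteins of Vpreb1 and Igll1 (lambda 5), and with the signalling pair CD79A and CD79B, and this complex is the pre-B cell receptor. EBF1 is the transcription factor that commits lymphoid progenitors to the B lineage and drives most of these genes. Of the sorted populations, MPP4 is the one known for lymphoid potential.

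Vpreb1 and Igll1 are neighbours on the minus strand of chromosome 16, at chr16:16868403-16870843 and chr16:16860671-16863985 in the GENCODE annotation of GRCm38 (mm10), 4417 bases apart. Vpreb3 lies on the plus strand at chr10:75943057-75949657. Cd79a is at chr7:24897381-24902197 (plus), Cd79b at chr11:106311341-106314762 (minus), Ebf1 at chr11:44617317-45008091 (plus), Spib at chr7:44525993-44532071 (minus) and Fcrla at chr1:170917576-170927583 (minus). The 250 bases before the RefSeq start of the surrogate light chain pair and of Vpreb3 are shown because these 3 genes carry the main results. The sequences are those of RefSeq on GRCm38.p6, at chr16:16869256-16869505 (minus) for Vpreb1, chr16:16863986-16864235 (minus) for Igll1 and chr10:75948050-75948299 (plus) for Vpreb3, and run 5′ to 3′. The GENCODE genes Vpreb1 and Vpreb3 begin further upstream. Capitals mark CAGGTG (an E-box), CCCNNGGG (the core bound by EBF1), ATGCAAAT (the octamer) and GGAAGT (an Ets core), searched on both strands, so that each may stand as its reverse complement.
Vpreb1: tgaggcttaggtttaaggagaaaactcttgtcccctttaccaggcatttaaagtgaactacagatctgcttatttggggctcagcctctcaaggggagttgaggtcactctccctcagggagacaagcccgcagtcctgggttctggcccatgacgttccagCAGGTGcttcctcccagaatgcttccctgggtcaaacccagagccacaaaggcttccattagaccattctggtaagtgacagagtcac
Igll1: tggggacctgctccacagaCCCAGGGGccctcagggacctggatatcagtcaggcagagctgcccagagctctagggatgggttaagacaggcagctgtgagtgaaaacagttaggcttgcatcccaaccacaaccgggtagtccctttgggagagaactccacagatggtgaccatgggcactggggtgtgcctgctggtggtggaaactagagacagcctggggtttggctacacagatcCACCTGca
Vpreb3: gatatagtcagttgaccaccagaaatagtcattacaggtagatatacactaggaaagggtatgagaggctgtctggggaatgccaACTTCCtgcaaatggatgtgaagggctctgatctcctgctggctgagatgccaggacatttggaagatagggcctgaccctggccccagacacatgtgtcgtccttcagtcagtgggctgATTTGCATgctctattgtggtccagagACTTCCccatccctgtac
The Vpreb1 window holds 1 CAGGTG, 88 bases before the start. The Igll1 window holds 1 CAGGTG, 8 bases before the start, and 1 CCCNNGGG, 231 bases before it. The Vpreb3 window holds 1 octamer, 45 bases before the start, and GGAAGT at 165 and 18 bases. Over 32851 windows of this length before RefSeq starts, CAGGTG occurs in 17.2%, CCCNNGGG in 11.8%, ATGCAAAT in 1.60% and GGAAGT in 19.7%. A match of letters is a description of the window, not evidence of a bound factor.

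Values are CPM, that is, per 1e+06 counts of the library, from the counts recovered from the deposited values. Library totals ran from 1577 to 123765 counts with a median of 41227, and 6 of 36 libraries held under 15000: Mof het HSC library 2, the 3 wild-type MPP2 libraries and wild-type MPP3 libraries 1 and 2. Kat8 itself had 11 counts over all Mof het libraries (9.86 CPM) and 12 over all wild-type libraries (18.3 CPM), a ratio of 0.539 with an exact 95% counting interval of 0.216 to 1.33, too few to check the labels. Some libraries went against their gate. Wild-type HSC library 3 had 33 CPM of 5 summed HSC markers, against 1685 and 1026 CPM in the other wild-type HSC libraries, and held the 8 B lineage genes at 5398 CPM. Wild-type MPP4 library 3 had no count of the MPP4 markers Flt3, Dntt and Cd34. In 7 libraries 8 summed neutrophil markers exceeded 10000 CPM: Mof het MEP library 3, wild-type MPP2 library 1, wild-type MPP3 libraries 1 and 3, wild-type MPP4 library 3 and wild-type MEP libraries 2 and 3. In sorts of 15 cells, fewer cells of a type and less RNA per cell cannot be told apart.

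All 8 genes passed the filter on low values (a mean of at least 1 count per 41227). Their totals over the 36 libraries ran from 84 counts for Ebf1 to 514 for Vpreb3. All 8 were present together in 10 libraries, and 4 libraries held no count of any. Summed over the 8 genes, Mof het libraries held 3761, 4415 and 3927 CPM in MPP4, against at most 1658 CPM in any other Mof het library. Wild-type libraries held 2846, 3408 and 3769 CPM in MPP4, 4453, 4944 and 5135 CPM in MPP2, and up to 5398 CPM elsewhere. The sum was therefore high in both genotypes in MPP4 and in wild type also in MPP2, and in CMP it stayed at or below 16.2 CPM in Mof het and 39.6 CPM in wild-type libraries.

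**Figure D1:**
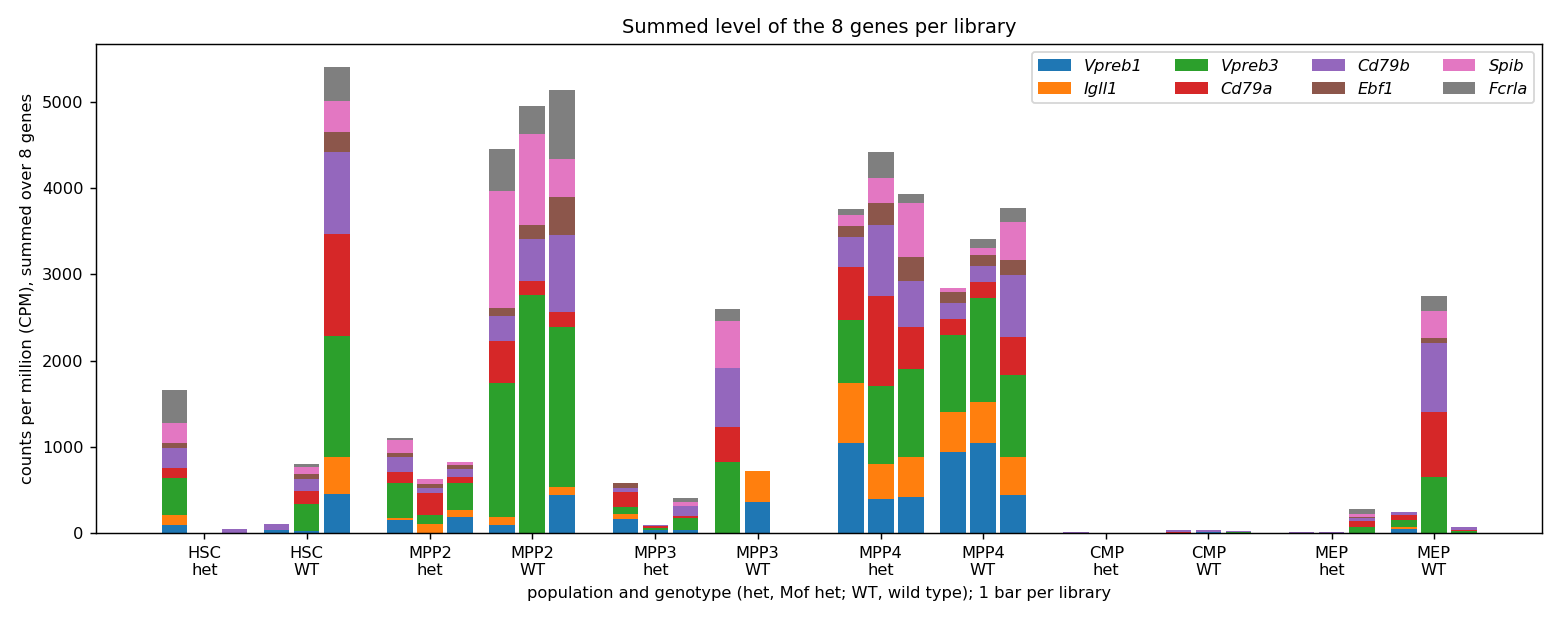
Level of the 8 genes per library, in CPM (vertical axis), as stacked bars with 1 bar per library and 1 colour per gene, by population and genotype (Mof het left of wild type). The 3 bars of Mof het MPP4, wild-type MPP4 and wild-type MPP2 all reach at least 2846 CPM. Wild-type HSC, MPP3 and MEP each have 1 high bar, of 5398, 2601 and 2743 CPM.

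The first comparison asked where among the Mof het populations the genes were highest, and the answer was MPP4. Vpreb1, Igll1, Vpreb3, Cd79a, Cd79b and Ebf1 were higher in Mof het MPP4 than in the mean of the other 5 Mof het populations, and Spib and Fcrla were also above that mean but did not pass the test. Thus 6 of 8 genes passed in the higher direction (limma, Benjamini-Hochberg adjusted p under 0.05), where 0.200% of the 6501 genes tested did. That share is 13 genes and includes these 6. Because the 8 were chosen with earlier results known, the contrast is a description and not an independent test. The median log2 difference of the 8 genes was 3.41, against 0.08 over all genes. HSC, CMP and MEP are in other library pools than MPP4, so population and pool cannot be told apart for them.

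Of the surrogate light chain genes, Vpreb1 had 1046, 395 and 415 CPM in the Mof het MPP4 libraries. In the other Mof het libraries it reached at most 193 CPM, in MPP2, and had no count in CMP or MEP. The MPP4 libraries did not overlap any other Mof het library, and the log2 difference was 3.64 (SE 0.69, limma adjusted p = 0.00254). Igll1 had 700, 413 and 463 CPM in Mof het MPP4 and at most 116 CPM in the other Mof het libraries, in HSC library 1. Its log2 difference was 3.83 (SE 0.64, limma adjusted p = 6.66e-04), the largest of the 8. From summed counts, 125 of 215324 in Mof het MPP4 and 15 of 900082 in the other Mof het populations, Igll1 was 34.8 times higher (exact 95% counting interval 20.3 to 64.1) and Vpreb1 19.5 times (13.4 to 28.9). These intervals and all others here cover counting error only, and summed counts weigh each population by its depth. Of the 900082 counts, CMP gave 274512 and MEP 239974, with no count of either gene. Reads of Vpreb1 can be shared with Vpreb2, whose transcript is 97.4% identical over 759 aligned bases, so the level of Vpreb1 is uncertain to that extent. Vpreb2 itself had 8 counts, in 2 Mof het libraries.

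Vpreb3, a relative of VPREB1 that stays inside the cell and binds new antibody chains, had 725, 897 and 1024 CPM in Mof het MPP4. The other Mof het libraries held at most 424 CPM, in HSC library 1. The log2 difference was 3.71 (SE 0.79, limma adjusted p = 0.00873). The signalling genes followed. Cd79a had 616, 1041 and 488 CPM in Mof het MPP4 and at most 260 CPM in the other Mof het libraries (log2 difference 3.70, SE 0.75, limma adjusted p = 0.00433). Cd79b had 346, 826 and 537 CPM in Mof het MPP4 and at most 231 CPM in the others (log2 difference 3.18, SE 0.72, limma adjusted p = 0.0224). For both signalling genes, as for Vpreb3, no library of another Mof het population reached the lowest MPP4 library.

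Among the transcription factors, Ebf1 had 126.5, 251 and 268 CPM in Mof het MPP4 and at most 57.8 CPM in the other Mof het libraries, with no overlap (log2 difference 2.66, SE 0.53, limma adjusted p = 0.00406). Spib, an Ets family factor of B cells and plasmacytoid dendritic cells, had 126.5, 287 and 634 CPM in Mof het MPP4, and HSC library 1 with 231 CPM overlapped them. Its log2 difference of 2.92 (SE 0.73) did not pass (limma adjusted p = 0.0591). Fcrla, an Fc receptor-like protein kept inside B cells, had 75.9, 305 and 97.6 CPM in Mof het MPP4 and lay below HSC library 1 with 386 CPM. Its log2 difference was 2.16 (SE 0.68, limma adjusted p = 0.230).

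Neutrophil markers summed to 8, 90 and 0 CPM in the Mof het MPP4 libraries. Library 3 of that group held 780 CPM of the MEP markers and 415 CPM of the MPP4 markers, against 3440 and 2082 CPM of MPP4 markers in libraries 1 and 2. Leaving out Mof het MPP4 library 1, 2 or 3 left 2, 2 and 3 of the genes past the threshold, and Igll1 passed with every one of the 36 libraries left out in turn (adjusted p 7.38e-05 to 0.0356). With a pseudocount of 0.1 in place of 1, 0 genes passed, although all 8 stayed positive. edgeR, which tested 1633 genes, passed all 8, and the share of its genes that passed is not given.

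**Figure D2:**
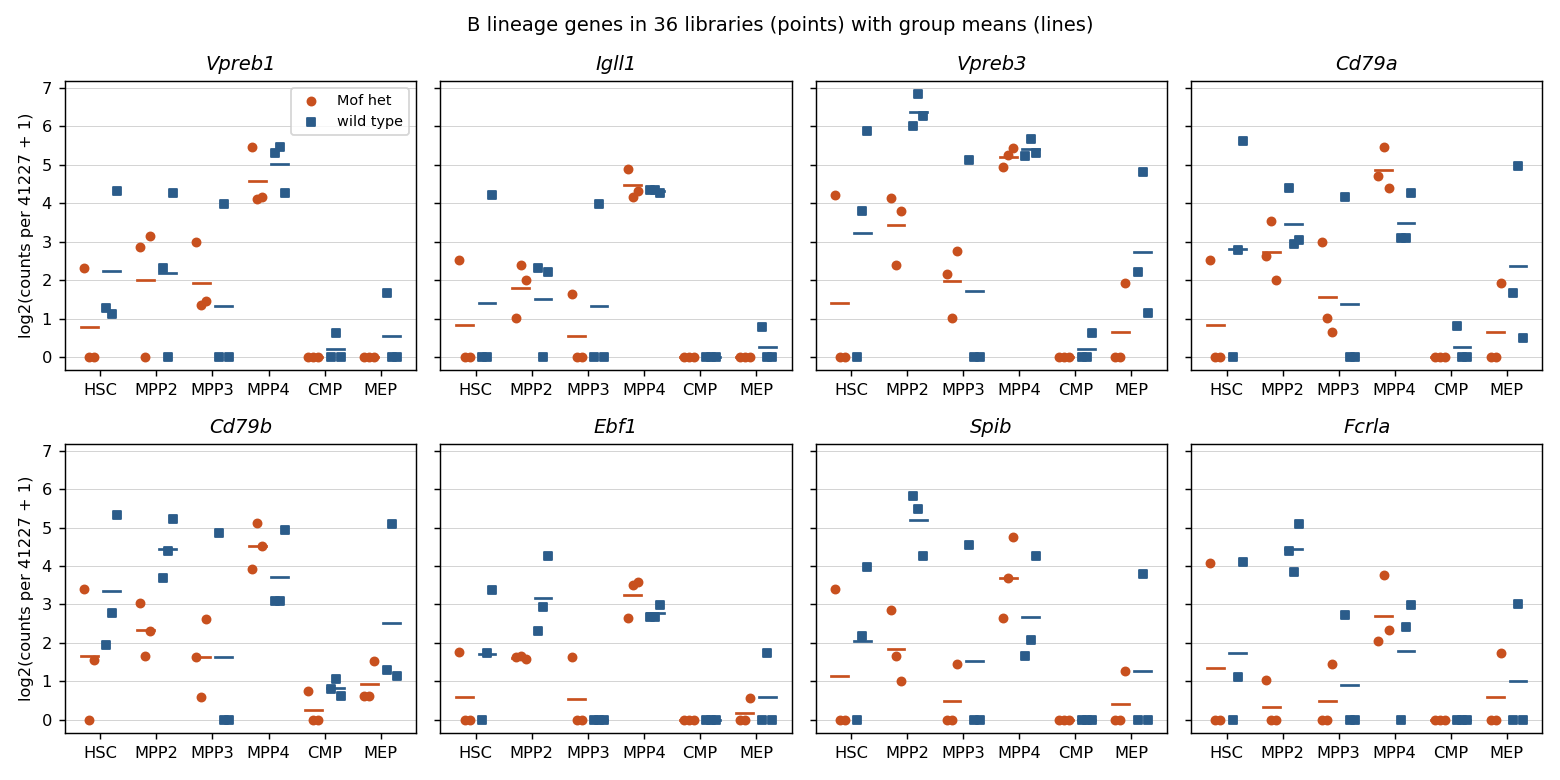
log2(counts per 41227 + 1) of each gene (vertical axis) in each library, by population (horizontal axis), with Mof het as circles left of wild type as squares, and lines at group means. Vpreb1 and Igll1 stand highest in MPP4 in both genotypes, and Vpreb3, Spib and Fcrla stand highest in wild-type MPP2.

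The same comparison in wild type passed the 2 surrogate light chain genes. Vpreb1 had 940, 1049 and 443 CPM in wild-type MPP4, against at most 458 CPM in the other wild-type libraries, in HSC library 3. Its log2 difference from the mean of the other 5 wild-type populations was 3.71 (SE 0.69, limma adjusted p = 0.00318). Igll1 had 470, 472 and 443 CPM in wild-type MPP4, nearly level across libraries, and at most 425 CPM elsewhere, again in HSC library 3 (log2 difference 3.42, SE 0.64, limma adjusted p = 0.00318). So 2 of 8 genes passed, where 0.0923% of all genes tested were higher. Apart from HSC library 3, the highest wild-type libraries outside MPP4 held 443 CPM of Vpreb1, in MPP2, and 362 CPM of Igll1, from 1 count in MPP3.

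The other 6 genes did not pass in wild-type MPP4. Vpreb3 had 888, 1206 and 942 CPM there, below all 3 wild-type MPP2 libraries, and its log2 difference was 2.56 (SE 0.79, limma adjusted p = 0.324). Ebf1 had 131, 131 and 166 CPM (log2 difference 1.68, SE 0.53, limma adjusted p = 0.373). Cd79a had 183, 184 and 443 CPM, Cd79b 183, 184 and 721 CPM, and Spib 52.2, 78.7 and 443 CPM, in each case highest in library 3, the library with no count of the MPP4 markers and 32982 CPM of neutrophil markers. The part of those markers in these levels was not tested. Leaving out wild-type MPP4 library 1 or 2 left 0 genes past the threshold. Omitting the libraries under 15000 counts removed wild-type MPP2 from the comparison and left wild-type MPP3 with library 3 alone. Omitting the 7 libraries rich in neutrophil markers left wild-type MPP3 with library 2 and wild-type MEP with library 1. No count of genes is given for either fit.

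Within MPP4, no gene differed between genotypes by limma or by edgeR or DESeq2, and 0 of 8 reached an unadjusted p under 0.05 in any of them. In that comparison limma called 0 genes of all tested. Vpreb1 averaged 618 ± 370 CPM in Mof het and 811 ± 323 CPM in wild-type MPP4 (SD, n = 3 each), a log2 difference of -0.43 (SE 0.89). Igll1 averaged 525 ± 153 CPM in Mof het and 462 ± 15.9 CPM in wild type (SD, n = 3 each), a log2 difference of 0.14 (SE 0.83). Cd79a showed the widest gap of the 8, with 715 ± 290 CPM in Mof het and 270 ± 150 CPM in wild type (SD, n = 3 each). Its Mof het libraries all lay above the wild-type ones, with a log2 difference of 1.37 (SE 0.97, limma adjusted p = 1). The share of all genes separated in this way is not given. The test of whether the genotype difference in MPP4 departs from that in the other populations passed for 0 of 8 genes, with 3 at an unadjusted p under 0.05 (limma), 2 by edgeR and 1 by DESeq2.

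In wild type, MPP2 was a second place of high levels. Vpreb3, Spib, Fcrla and Ebf1 were higher there than in the mean of the other 5 wild-type populations, 4 of 8 genes, where 0.446% of all genes tested were higher. Cd79b and Cd79a were also above that mean, with log2 differences of 2.04 and 1.40, but did not pass. The median log2 difference of all genes was -0.20 in this comparison.

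Vpreb3 had 1549, 2755 and 1859 CPM in wild-type MPP2, above every other library of the study, the next being 1407 CPM in wild-type HSC library 3 (log2 difference 3.73, SE 0.79, limma adjusted p = 0.00903). Spib had 1355, 1054 and 443 CPM, against at most 548 CPM in the other wild-type libraries, in MPP3 library 1 (log2 difference 3.69, SE 0.73, limma adjusted p = 0.00674). Fcrla had 484, 324 and 797 CPM, overlapping only the 393 CPM of HSC library 3 (log2 difference 3.35, SE 0.68, limma adjusted p = 0.00674). Ebf1 had 96.8, 162 and 443 CPM, from 1, 2 and 5 counts, and overlapped the MPP4 and HSC libraries (log2 difference 2.16, SE 0.53, limma adjusted p = 0.0277).

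The surrogate light chain genes did not share this. Vpreb1 had 96.8, 0 and 443 CPM in wild-type MPP2, from 1, 0 and 5 counts (log2 difference 0.33, SE 0.69), and Igll1 had 96.8, 0 and 88.5 CPM, from 1, 0 and 1 counts (log2 difference 0.05, SE 0.64). Both signs turned under other scalings of the libraries, as given below. From summed counts, Spib was 14.0 times higher in wild-type MPP2 than in the other wild-type populations (exact 95% counting interval 8.53 to 22.6) and Vpreb1 1.05 times (0.376 to 2.36). All 3 wild-type MPP2 libraries held 10331 to 12339 counts, so that 1 count was worth 81.0 to 96.8 CPM. Without libraries under 15000 counts this group is gone, and the comparison could not be repeated. Each wild-type MPP2 library ended calls when left out: Spib without library 1 (limma adjusted p = 0.0503), Ebf1 and Vpreb3 without library 2 (limma adjusted p = 0.0564 and 0.056), and Ebf1 without library 3 (limma adjusted p = 0.153). edgeR passed Vpreb3 alone and DESeq2 Ebf1 alone.

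**Figure D3:**
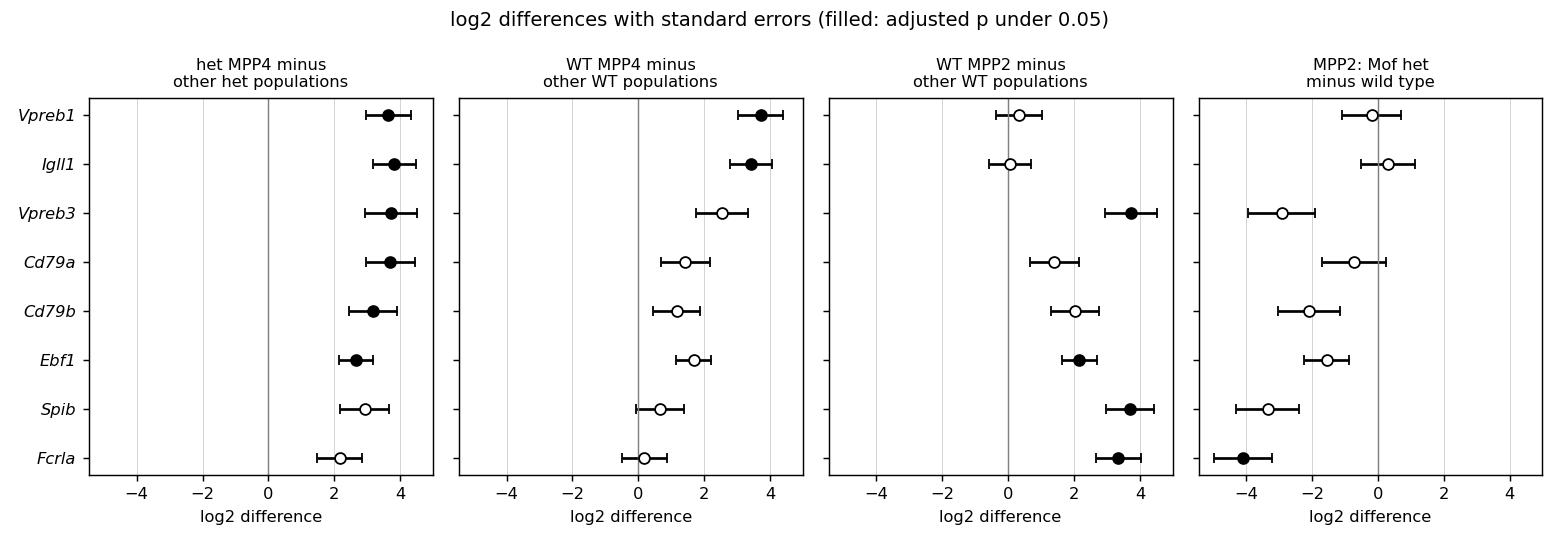
log2 difference of each gene with its standard error (horizontal axis) in 4 comparisons, with filled points at an adjusted p under 0.05. In wild-type MPP4 the surrogate light chain genes lie furthest right, in Mof het MPP4 they lie beside Vpreb3 and Cd79a, and in wild-type MPP2 they lie near 0 while Vpreb3, Spib and Fcrla lie above 3.

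Between genotypes within MPP2, Fcrla was lower in Mof het, 1 of 8 genes, where 0.0769% of all genes tested were lower. It had 25.2, 0 and 0 CPM in Mof het MPP2, 1 count in all, and 484, 324 and 797 CPM in wild-type MPP2, 18 counts. The genotypes did not overlap, and the log2 difference was -4.10 (SE 0.88, limma adjusted p = 0.0139). From summed counts Fcrla stood at 0.0188 times the wild-type level (exact 95% counting interval 4.51e-04 to 0.119). Spib had 151, 52.0 and 24.1 CPM in Mof het and 1355, 1054 and 443 CPM in wild type, and Vpreb3 had 403, 104 and 314 CPM in Mof het and 1549, 2755 and 1859 CPM in wild type. Neither pair of groups overlapped, and neither log2 difference passed, with -3.36 (SE 0.95, limma adjusted p = 0.0712) for Spib and -2.93 (SE 1.02, limma adjusted p = 0.140) for Vpreb3. The share of all genes whose groups did not overlap is not given, so a lack of overlap cannot show an excess.

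Cd79b had 176, 52.0 and 96.5 CPM in Mof het MPP2 and 290, 486 and 885 CPM in wild-type MPP2, also without overlap (log2 difference -2.10, SE 0.93, limma adjusted p = 0.267). Ebf1 had 50.3, 52.0 and 48.2 CPM in Mof het and 96.8, 162 and 443 CPM in wild type (log2 difference -1.56, SE 0.68, limma adjusted p = 0.261). Vpreb1, Igll1 and Cd79a overlapped between the genotypes, with log2 differences of -0.19 (SE 0.89), 0.30 (SE 0.83) and -0.74 (SE 0.97). The median of the 8 genes was -1.83, against 0.28 over all genes. Summed over the 8 genes, Mof het MPP2 held 1107, 624 and 820 CPM and wild-type MPP2 4453, 4944 and 5135 CPM.

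This comparison rests on the shallow wild-type libraries, and genotype and library pool cannot be told apart in it. The call of Fcrla was lost without Mof het MPP2 library 2 or 3 or wild-type MPP2 library 1 or 3 (adjusted p 0.00614 to 0.128 over all 36 libraries left out in turn), and it was not made by edgeR, while DESeq2 gave Fcrla no adjusted p. Neutrophil markers summed to 277, 156 and 48 CPM in Mof het MPP2 and to 18585, 243 and 89 CPM in wild-type MPP2. Markers of plasmacytoid dendritic cells, which also express Spib, summed to 1107, 1249 and 748 CPM in Mof het and 1355, 243 and 3984 CPM in wild type, and Siglech, the marker closest to that cell type, had 75.5, 52.0 and 0 CPM in Mof het and 0, 0 and 266 CPM in wild type. Their part in the result was not tested. The test of whether the genotype difference in MPP2 departs from that in the other populations passed for 0 of 8 genes (limma, 2 at an unadjusted p under 0.05, and 0 by edgeR and DESeq2), with Fcrla nearest at an adjusted p of 0.0885, where 0% of all genes tested passed.

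Averaged over the 6 populations, all 8 genes had negative log2 differences (Mof het minus wild type) in limma and 0 of 8 passed, where 0.0769% of all genes tested did in either direction. The log2 differences ran from -0.20 (SE 0.34) for Igll1 to -1.16 (SE 0.42, limma adjusted p = 0.299) for Vpreb3, and 4 genes had an unadjusted p under 0.05. edgeR passed 0, and DESeq2 passed Cd79b of the 2 genes to which it gave an adjusted p. Without the libraries under 15000 counts, wild-type MPP2 is gone and the average leaves out MPP2, so it is a different quantity. In it 3 of the 8 genes were positive. In HSC, MPP3, CMP and MEP limma passed 0 of 8 genes between genotypes, where 0.0154%, 0.492%, 0% and 0% of all genes tested passed. In HSC 1 gene and in MEP 1 gene had an unadjusted p under 0.05, and edgeR and DESeq2 passed 0 as well.

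In HSC and MEP of both genotypes and in wild-type MPP3, 1 library held most of the summed CPM of the 8 genes, while Mof het MPP3 held 579, 100.1 and 405 CPM. Against the mean of the other populations, limma passed 0 of 8 genes in Mof het HSC, MPP2, MPP3, CMP and MEP, where 1.75%, 0%, 0.277%, 0.0615% and 0.0769% of all genes tested passed. It also passed 0 of 8 in wild-type HSC, MPP3 and MEP, where 0.0461%, 4.74% and 0.0769% of all genes passed. Vpreb3 had 424, 0 and 0 CPM in Mof het HSC and 0, 313 and 1407 CPM in wild-type HSC. In MEP, Cd79b had 13.0, 13.3 and 45.6 CPM in Mof het and 35.2, 800 and 29.3 CPM in wild type. Wild-type MEP library 2, with 2743 CPM of the 8 genes, had no count of Vpreb1 or Igll1 and 31918 CPM of neutrophil markers. In wild-type MPP3, library 1 held 2601 CPM, library 2 held 724 CPM from 2 counts, and library 3 held none. In CMP, 7 of the 8 genes had no count in 274512 Mof het counts, which allows up to 10.9 CPM each (3 counts of that total), and Cd79b had 1 count. In 207865 wild-type CMP counts, Cd79b had 4 counts, Vpreb1, Vpreb3 and Cd79a 1 each and the rest none. Of the 8, Vpreb3 was lower in wild-type CMP than in the mean of the other 5 wild-type populations (log2 difference -3.68, SE 0.79, limma adjusted p = 0.0136), 1 gene where 0.0308% of all genes tested were lower. The call was lost without any 1 of the 3 wild-type CMP libraries, while edgeR passed 3 genes and DESeq2 5.

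The make-up of the signal also varied between libraries, more clearly in wild type than in Mof het, and was not tested. Vpreb1 and Igll1 together gave 46.4%, 18.3% and 22.4% of the counts of the 8 genes in Mof het MPP4, and 49.5%, 44.6% and 23.5% in wild-type MPP4. In wild-type MPP2 they gave 4.35%, 0% and 10.3%, with exact 95% intervals reaching at most 21.2%. Wild-type HSC library 3, as rich in these genes as MPP4, stood at 16.4% (11.1% to 22.9%), and wild-type MEP library 2 at 0% (up to 3.77%). Over the 18 libraries with at least 20 counts of the 8 genes, the 6 MPP4 libraries had a median of 34.1% and the other 12 a median of 10.3%. In wild type the medians were 44.6% in MPP4 and 3.96% elsewhere, and in Mof het 22.4% and 14.3%. The Mof het ranges overlapped, since Mof het MPP3 library 1 stood at 38.2% and Mof het MPP2 library 3 at 32.4%, each with a wide interval.

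**Figure D4:**
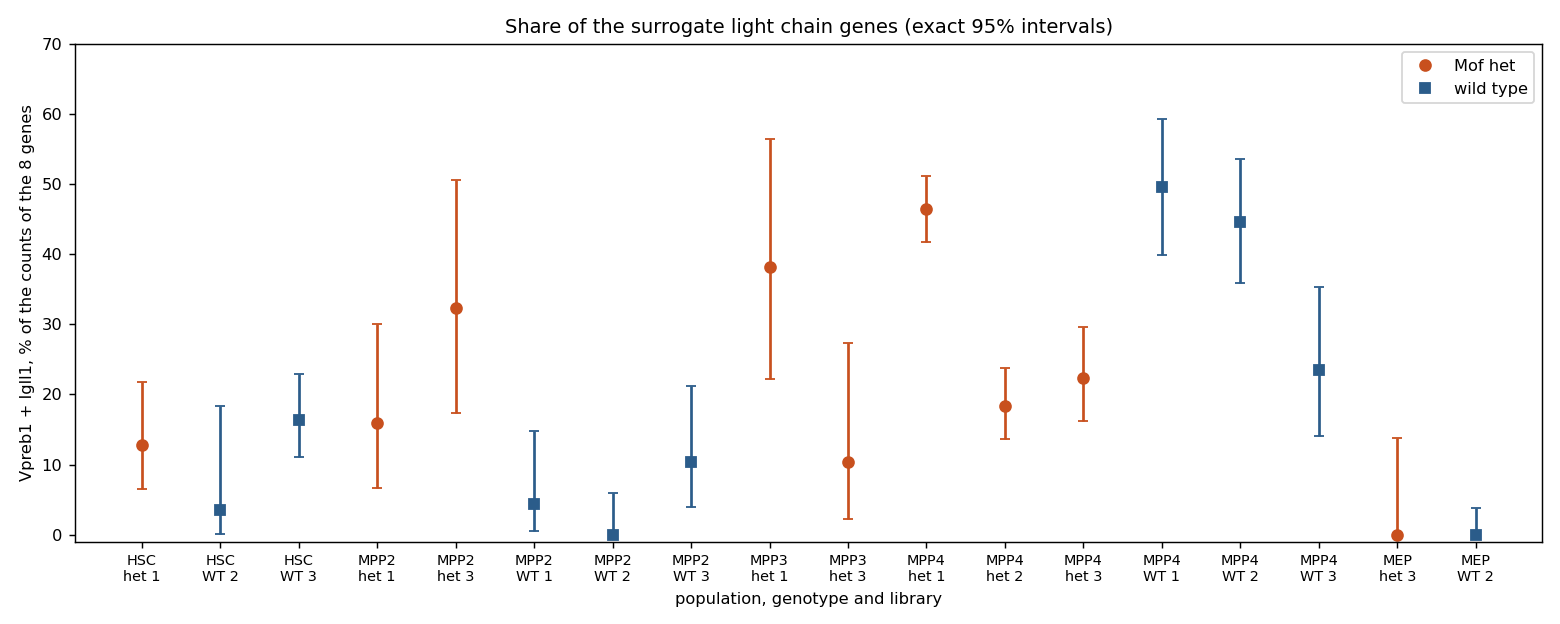
Share of Vpreb1 and Igll1 in the counts of the 8 genes (vertical axis, %) for each of the 18 libraries with at least 20 such counts, with exact 95% intervals, circles for Mof het and squares for wild type. MPP4 libraries run from 18.3% to 49.5%, and wild-type MPP2 libraries from 0% to 10.3%.

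Likeness to other genes across the 36 libraries was measured as Pearson's r of log2(value + 1) over 5972 candidate genes of at least 50 counts. Libraries of 1 group share a population and genotype and differ in depth, so r is a description. Vpreb1 was most like Igll1 (r = 0.91), then Lef1 (r = 0.88), a transcription factor of pro-B cells, and Ppp1r16b (r = 0.80). Vpreb3 was most like Prkcb (r = 0.95), the protein kinase C of B cell receptor signalling, then Cd79b and Blnk (r = 0.92 each). Cd79a was most like Vpreb3 and Cd79b (r = 0.89 each), and Cd79b like Prkcb (r = 0.93). Spib was most like Vpreb3, Cd79b and Fcrla (r = 0.91 each), and Fcrla most like Spib. Ebf1 was most like Chst3 and Vpreb3 (r = 0.88 each).

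Other genes of the pathway, without the 8, were counted from lists, and those with the most counts are named, with any that passed. In Mof het MPP4, 1 of 12 tested genes of pre-B receptor signalling was higher, the adaptor Blnk (log2 difference 3.11, SE 0.62, limma adjusted p = 0.00406), with 405, 269 and 268 CPM in MPP4 and at most 72.4 CPM in the other Mof het libraries. The list's median was 0.56, against 0.08 over all genes. Its most counted genes, Grb2, Ptpn6, Syk and Pik3cd, had log2 differences of -0.35, 0.63, 0.51 and 1.04 (limma adjusted p at least 0.941). Of 9 tested genes of recombination and early lymphoid cells, Dntt was higher (log2 difference 4.07, SE 0.77, limma adjusted p = 0.00254), the enzyme that adds bases at antibody gene joins. It had 2774, 1615 and 244 CPM in Mof het MPP4, and the list's median was 1.84. Satb1 and Flt3, a receptor of the MPP4 gate, had log2 differences of 1.83 (SE 0.57, limma adjusted p = 0.216) and 1.85 (SE 0.62, limma adjusted p = 0.288), and Dclre1c one of -0.05. Of 12 B lineage transcription factors 0 passed limma, 7 had an unadjusted p under 0.05 and 11 were positive (median 1.28). The share of all genes under that unadjusted threshold is not given, so such counts cannot show an excess. Myb, Bcl11a, Ikzf1 and Irf8 had log2 differences of -0.67, 0.44, 0.62 and 1.57. Of 10 mature B and antigen presentation genes 0 passed, 6 had an unadjusted p under 0.05 and all 10 were positive (median 1.68). Cd74 and the MHC class II genes H2-Aa and H2-Ab1 had log2 differences of 2.30, 1.71 and 1.96, and Cd37 one of 1.65. Of 2 tested plasma cell genes, Xbp1 and Mzb1, 0 passed and 1 had an unadjusted p under 0.05 (log2 differences 0.65 and 2.07). Of 3 tested T and NK cell markers 0 passed and 1 had an unadjusted p under 0.05, with a median of -0.04.

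The count tools passed more of these genes in Mof het MPP4. The share of all genes that they passed is not given, so these counts cannot show an excess over other genes. Among the early lymphoid genes edgeR passed 5 of 6 it tested, all higher (Dntt, Flt3, Il7r, Ly6d and Satb1), and DESeq2 passed 6 of 9, all higher (Dntt, Flt3, Il7r, Notch1, Rag1 and Satb1). For pre-B receptor signalling edgeR passed Blnk and Pik3cd, both higher, and DESeq2 passed Blnk of 12. Of the transcription factors edgeR passed Bach2 and Foxo1 of 8, both higher, and DESeq2 passed Foxo1 and Pou2af1 as higher and Myb as lower, of 12. Of the mature B and antigen presentation genes edgeR passed Cd37, H2-Eb1 and Ms4a1 of 7 and DESeq2 passed Cd37 of 10, and of the plasma cell genes DESeq2 passed Mzb1, all higher. DESeq2 passed 0 T and NK cell markers, and edgeR tested no gene of either of the plasma cell and T and NK lists.

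In wild-type MPP4, Lef1 was higher, 1 of 12 transcription factors (log2 difference 2.77, SE 0.56, limma adjusted p = 0.00914), with 339, 184 and 222 CPM there. Rag1, which cuts antibody genes for joining, was higher, 1 of 9 early lymphoid genes (log2 difference 2.21, SE 0.49, limma adjusted p = 0.0282), with 131, 131 and 222 CPM. Lef1 was not passed there by DESeq2, which gave Rag1 no adjusted p, and edgeR tested neither. Both tools passed Dntt, Flt3, Il7r and Satb1 among the early lymphoid genes and Blnk in signalling, all higher. In wild-type MPP2, Irf8 was higher, 1 of 12 transcription factors (log2 difference 2.78, SE 0.75, limma adjusted p = 0.0446). Satb1, a chromatin organiser of lymphoid progenitors, was lower there, 1 of 9 early lymphoid genes (log2 difference -2.12, SE 0.57, limma adjusted p = 0.0441). Neither Irf8 nor Satb1 was passed there by edgeR or DESeq2. Of these lists edgeR passed 0 genes in wild-type MPP2, and DESeq2 passed Bcl11a, Foxo1, Ikzf1, Ptpn6 and Il7r, all higher. Dntt had 194, 0 and 0 CPM in wild-type MPP2. Ms4a1 (CD20), a marker of later B cells, had 0, 324 and 620 CPM there. Between genotypes in MPP2, 0 of 12 transcription factors and 0 of 10 mature B genes passed limma, and 5 and 4 of them had an unadjusted p under 0.05. Here edgeR passed 0 of both, and DESeq2 passed 1 transcription factor, Ikzf1, as lower and 0 mature B genes, with no adjusted p for 7 and 6 genes of these lists. All 12 and all 10 were negative (medians -1.37 and -1.75), against a median of 0.28 over all genes.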

How the data were processed

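The submitters' processing notes name BWA 0.6.2-r126 and the build mm10, and no source used here gives the read counter, gene models or treatment of molecular identifiers. Each table's deposited signal had been divided by a factor for each library by the authors, read from the values: 100% of the values of each library were whole multiples of its smallest value (within 0.01 counts). Whole counts were recovered from this and scaled to the median total of 41227, without 92 spike-in rows. In the wild-type MEP table, names after the first 6842 genes stand 92 rows early, so its rows were named by position from wild-type HSC, which gave a rank correlation of 0.905 with wild-type CMP across genes. Since the deposited signal is scaled, the test was limma 3.58.1 (R 4.3.3) on log2(scaled value + 1), with 1 coefficient per population and genotype over all 36 libraries, for 6501 genes of mean at least 1, with Benjamini-Hochberg adjustment over all of them. This scale understates changes of low genes. Counts at an unadjusted p under 0.05, and counts passed by edgeR or DESeq2, are given without the share of all genes. The same holds for groups said not to overlap. None of these can show an excess over other genes. The script was run on simulated data with a preset spread and with changes only in genes of higher mean than Ebf1, Fcrla and Igll1. That run therefore does not cover these 3 genes or the spread between these libraries. Alternatives were TMM and RLE scaling, the values as deposited, pseudocounts of 0.1 and 5, no filter, edgeR 4.0.16 and DESeq2 1.42.0 on the recovered counts, leaving out shallow libraries and each library in turn. Labels give 6 pools, 3 per genotype, so pool and genotype coincide. Within a genotype, HSC is in the early progenitor pool, MPP2, MPP3 and MPP4 in the MPPs pool, and CMP and MEP in the late progenitor pool. Differences of MPP2 or MPP4 from HSC, CMP and MEP therefore cannot be told apart from pool. Named genes are the 8 genes, the 3 most alike to each, and the 4 of each list with the most counts; other list genes are named because they passed a test, or, for Ms4a1 and Siglech, as markers, and were chosen after their values were seen. Members and lists were chosen with earlier results of these data known. Of the lists' symbols, Spi1, Fcmr, Ighm, Ighd, Igkc, Jchain, Trbc1 and Trbc2 were not matched and are not used here. The values of 1 list gene are not reported here.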

Additional observations from a re-analysis of the deposited data

How the results depend on the processing

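Counts of the 8 genes past the threshold depended on the setting in several comparisons, and the cause was not tested. Between genotypes in MPP2 (1 gene) the count was 0 with the deposited values, a pseudocount of 0.1, no filter or edgeR, 0 by DESeq2 of the 5 genes it gave an adjusted p, which leave out Fcrla, and 3 with a pseudocount of 5. In Mof het MPP4 (6 genes) it was 0 with a pseudocount of 0.1. In wild-type MPP4 (2 genes) it was 0 with that pseudocount and 1 by DESeq2. In wild-type MPP2 (4 genes) it was 1 by edgeR and 1 by DESeq2. Omitting the libraries under 15000 counts, or the 7 libraries rich in neutrophil markers, left some groups with a lone library. Counts of genes past the threshold are not given for those fits. In wild-type CMP (1 gene) it was 0 with a pseudocount of 0.1 or without the filter, 3 by edgeR and 5 by DESeq2. In Mof het CMP (0 genes) edgeR gave 1 and DESeq2 2. In wild-type MPP3 (0 genes) TMM and RLE gave 2 each and a pseudocount of 0.1 gave 1. The averaged genotype difference (0 genes) gave 1 by DESeq2. The MPP2 interaction (0 genes) gave 1 with a pseudocount of 5 and 1 without wild-type HSC library 3 and MEP library 2. The 2 omissions of libraries that stand apart were chosen after seeing the data. Leaving out each library in turn gave 0 to 2 genes between genotypes in MPP2, 2 to 7 in Mof het MPP4, 2 to 5 in wild-type MPP2, 0 to 2 in wild-type MPP3, 0 to 2 in wild-type MPP4, 0 to 1 in wild-type CMP, 0 to 1 in the MPP2 interaction and 0 in the other 18 comparisons. For wild-type MPP3 the libraries behind this were Mof het HSC 1, 2 and 3 and wild-type HSC 1, MPP2 1 and 2, MPP3 1 and MPP4 3, and for the interaction Mof het HSC 2, wild-type HSC 3 and wild-type MPP3 1. For MPP2 between genotypes, the count rose to 2 without Mof het HSC 2 or wild-type MPP3 1 or 2. Small log2 differences that did not pass changed sign. Between genotypes in MPP2, Igll1 became -0.11 by DESeq2 (no adjusted p) and Vpreb1 0.27 with TMM and 0.38 with RLE, and leaving out libraries gave -0.46 to 0.70 for Igll1 and -1.29 to 0.85 for Vpreb1. In wild-type MPP2, Igll1 became -0.19 with TMM, -0.26 with RLE, -0.20 with a pseudocount of 5 and -0.9985 without the 7 libraries, and Vpreb1 -0.0427 with RLE and -0.57 without the 7, with -0.36 to 0.80 for Igll1 and -0.71 to 1.42 for Vpreb1 over libraries left out. In wild-type MPP4, Fcrla became -0.0762 with a pseudocount of 5 and -0.0346 without the 7, with -0.41 to 1.07 for Fcrla and -0.14 to 1.17 for Spib over libraries left out. RLE moved the median of all genes from -0.20 to -0.51 in wild-type MPP2. No paired analysis was possible because the columns carry no replicate numbers shared between groups. Depth limits wild-type MPP2 and MPP3 most.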
